A study of Homo sapiens with 12 samples.

Results

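PRMT1 depletion was examined here in T47D cells that were exposed to the progestin R5020, by setting 3 libraries of cells transfected with siRNA against PRMT1 (siPRMT1) against 3 libraries of cells transfected with a nonspecific siRNA (siCT). All 6 cultures received 10 nM R5020 for 6 h, so that hormone is common to both groups and siRNA is what differs. These are 6 of the 12 libraries of the series, and the other 6 are the same siRNA groups kept for 6 h in ethanol, the vehicle of the hormone. The comparison covers all 55765 gene symbols in the count tables, of which 17727 passed a filter on low counts and were tested. T47D is a luminal breast cancer line that carries estrogen and progesterone receptors. RNA was measured by mRNA sequencing of 3 biological replicates per group. All results come from this 1 cell line and from transient depletion, and the siRNA sequences and the time between transfection and hormone were not given in the sources used here.

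PRMT1 is the main enzyme that places asymmetric dimethylarginine on proteins. Its substrates include histone H4 at an arginine near the tail's end, many RNA-binding proteins with arginine and glycine rich (RGG) stretches, and regulators of transcription, and it is known as a coactivator of steroid receptors. R5020 (promegestone) is a synthetic agonist of the progesterone receptor. In T47D cells this receptor acts in the nucleus on genes such as SGK1 and also triggers short-lived kinase signals that reach immediate early genes and cell cycle genes. The series' design text states the question: whether hormone-induced expression of genes needs PRMT1.

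The 6 R5020 libraries held 26783525 to 34120937 counts each. The siCT R5020 replicate 1 library stood apart. Mitochondrially encoded genes took 52.35% of its counts against 31.32 to 38.26% in the other 5, and the nuclear RNA MALAT1 was at 948 CPM against 250.7 to 379.1. CPM, the field's unit of read counts relative to library size, is scaled here by edgeR's TMM factors. The biological coefficient of variation of the siCT R5020 group was 0.213 with that library and 0.0643 without it, and that of the siPRMT1 R5020 group was 0.0753. Many results are therefore given with and without it. Counts of called genes in a list that are given only with it can differ when it is left out. All 11 defining T47D markers passed the filter, and with depletion 4 of them rose (ESR1, PGR, KRT8 and KRT18) and 3 fell (GATA3, FOXA1 and TFF3). Of 20 markers of stroma, endothelium, blood and fat in the tables only 4 passed, and their list summed to 35.82 to 69.39 CPM in siCT and 39.76 to 44.08 CPM in siPRMT1 libraries, most of it COL1A1; PDGFRA, which defines fibroblasts, was at 0 counts in all 6. Of these 4 only LUM was called, as lower, and that call was lost when any R5020 library except siCT replicate 2 was left out.

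PRMT1 itself fell with its siRNA. It was at 40.6, 50.7 and 37.5 CPM with siCT and 6.98, 6.89 and 7.37 CPM with siPRMT1, given in the order of replicates 1 to 3 here and below. Every siPRMT1 library was under every siCT library, and the remaining level was even across the 3 depleted cultures. The log2 fold change was -2.60 ± 0.18, adjusted p = 2.96e-06 (± is the standard error of edgeR's quasi-likelihood fit, and p is adjusted by the Benjamini-Hochberg method over all genes tested, throughout), a 6.07-fold reduction with n = 3 per group. A gene is called here where that adjusted p is under 0.05. For each gene whose 6 values are listed below, all siPRMT1 libraries lay on the same side of all siCT libraries in R5020, unless overlap is stated.

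Of the 8 tested members of the arginine methyltransferase family, 1 rose and 2, PRMT1 included, fell (37.5% called, against 25.7% of all genes). PRMT2, a weak type I enzyme, was at 13.5, 16.2 and 16.1 CPM with siCT and 7.11, 8.20 and 8.51 CPM with siPRMT1 and fell by 0.95 on the log2 scale (adjusted p = 0.000759). PRMT5, the main enzyme for symmetric dimethylarginine, rose by 0.50 (adjusted p = 0.0465), and without siCT replicate 1 its value of 0.42 did not pass (adjusted p = 0.141). CARM1, which methylates histone H3 and coactivators, had a log2 fold change of -0.49 ± 0.18, adjusted p = 0.0626. Among 21 partners and readers of these enzymes 2 rose and 2 fell (19% called, under the 25.7% of all genes). BTG2, an antiproliferative protein that binds PRMT1, was at 25.3, 23.4 and 23.1 CPM with siCT and 8.21, 7.51 and 8.10 CPM with siPRMT1 and fell by 1.59 (adjusted p = 2.02e-05). WDR77, the partner of PRMT5 in the methylosome, fell (-0.84 ± 0.18, adjusted p = 0.00534), while RIOK1, another PRMT5 adaptor, and TDRD3, a Tudor domain reader of asymmetric dimethylarginine, rose (0.67 and 0.75).

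Across all genes tested, 4559 were called (25.7%), of which 2046 were higher (11.5%) and 2513 lower (14.2%) with siPRMT1. At least 2-fold changes were more often falls than rises, with 1380 genes lower (7.78%) and 609 higher (3.44%). At least 4-fold changes were called for 231 lower and 94 higher genes, and at least 8-fold changes for 36 lower and 29 higher. At an unadjusted p under 0.05 edgeR had 39.3% of all genes (18.2% higher and 21.1% lower), and limma voom with quality weights called 55.7% (27.3% higher and 28.3% lower). The median log2 fold change of all tested genes was -0.03. With library totals in place of TMM scaling 13.7% were called and the split was 744 higher and 1685 lower, so 30.6% of the calls were higher against 44.9%, and without siCT replicate 1 it was 1387 higher and 1786 lower (17.9% called). All 4559 called genes kept their sign in both of these fits.

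The largest rises, among called genes at 5 CPM or more on average whose groups did not overlap, were led by S100A8, CASP14, EPB41L3 and ANKRD46. S100A8, a calcium-binding alarmin, was at 0.807, 0.689 and 1.03 CPM with siCT and 14.6, 17.1 and 15.3 CPM with siPRMT1. It was low in every control culture and far higher in every depleted one, an 18.55-fold rise (4.21 ± 0.22, adjusted p = 7.49e-07). Its dimer partner S100A9 was at 4.68, 6.37 and 6.46 CPM with siCT and 37.1, 33.2 and 35.4 CPM with siPRMT1 and rose with it (2.59 ± 0.22, adjusted p = 1.6e-05). CASP14, the caspase of keratinizing epithelium, was at 0.565, 1.10 and 0.968 CPM with siCT and 12.96, 10.2 and 9.80 CPM with siPRMT1 and rose 12.2-fold (3.61 ± 0.22, adjusted p = 2.19e-06). These 3 genes are known from stratified epithelium and inflammation.

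EPB41L3, a membrane skeleton protein, was at 1.86, 1.38 and 1.81 CPM with siCT and 12.7, 14.8 and 13.04 CPM with siPRMT1 (log2 fold change 3.01 ± 0.24, adjusted p = 1.18e-05). LIN28A, an RNA-binding protein that blocks let-7 processing, was at 3.96, 4.85 and 4.56 CPM with siCT and 21.6, 27.6 and 27.4 CPM with siPRMT1 (2.51 ± 0.17, adjusted p = 2.96e-06). HIPK1, a nuclear kinase, was at 52.8, 67.03 and 65.2 CPM with siCT and 285, 268 and 258 CPM with siPRMT1 (2.13 ± 0.15, adjusted p = 2.97e-06), which is a 4.38-fold rise of a gene that is well expressed in control cells. RARRES3, a retinoid-induced phospholipase, and HLA-DRA, the alpha chain of the class II receptor HLA-DR, rose by 2.08 and 2.08 on the log2 scale. The other genes of this group were ANKRD46, SOWAHA, the long noncoding RNA UCA1, the pregnancy glycoprotein PSG9, which has near-identical paralogs that could share its reads, and the phospholipase PLCH1, with log2 fold changes of 2.68, 2.57, 2.36, 2.12 and 2.07. KRT18P28 also belongs here at 2.18, but it is a pseudogene copy of KRT18, which itself rose, so that reads could be assigned to either and its value is uncertain.

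Within the same limits, the largest falls were led by MCAM, EGR1, MAP1A and FOSB. MCAM, an adhesion molecule of the immunoglobulin family, was at 14.2, 7.80 and 6.75 CPM with siCT and 0.937, 0.911 and 1.20 CPM with siPRMT1. The siCT replicate 1 value was the highest, and all 3 controls lay above all 3 depleted libraries (-3.23 ± 0.44, adjusted p = 0.000366, and -2.83 without that replicate). MAP1A, a microtubule-associated protein, was at 19.3, 23.5 and 20.5 CPM with siCT and 2.94, 2.77 and 3.15 CPM with siPRMT1 (-2.83 ± 0.18, adjusted p = 2.19e-06). SOD3, the secreted superoxide dismutase, had the highest counts of the group, at 920.3, 614 and 527 CPM with siCT and 133, 105 and 113 CPM with siPRMT1, a 5.87-fold fall (-2.55 ± 0.31, adjusted p = 0.000163). ACTA2, smooth muscle actin, was at 33.8, 46.8 and 46.4 CPM with siCT and 7.98, 7.54 and 7.28 CPM with siPRMT1 (-2.48 ± 0.17, adjusted p = 2.97e-06), and here siCT replicate 1 was the lowest of the controls.

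Several of the others encode secreted or cell surface proteins. CERCAM, an adhesion-related glycosyltransferase-like protein, and the matrix proteins ADAMTSL4 and FBLN5 had log2 fold changes of -2.74, -2.65 and -2.55. GLT8D2, a glycosyltransferase, SCARA3, a scavenger receptor, the phosphatase DUSP15 and ARMC12 were at -2.62, -2.35, -2.36 and -2.50. None of the 14 highest and 14 lowest genes lost its call under any of the alternative fits or when any 1 of the 12 libraries was left out. They were chosen as called and not overlapping, so these properties are no finding.

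**Figure D1:**
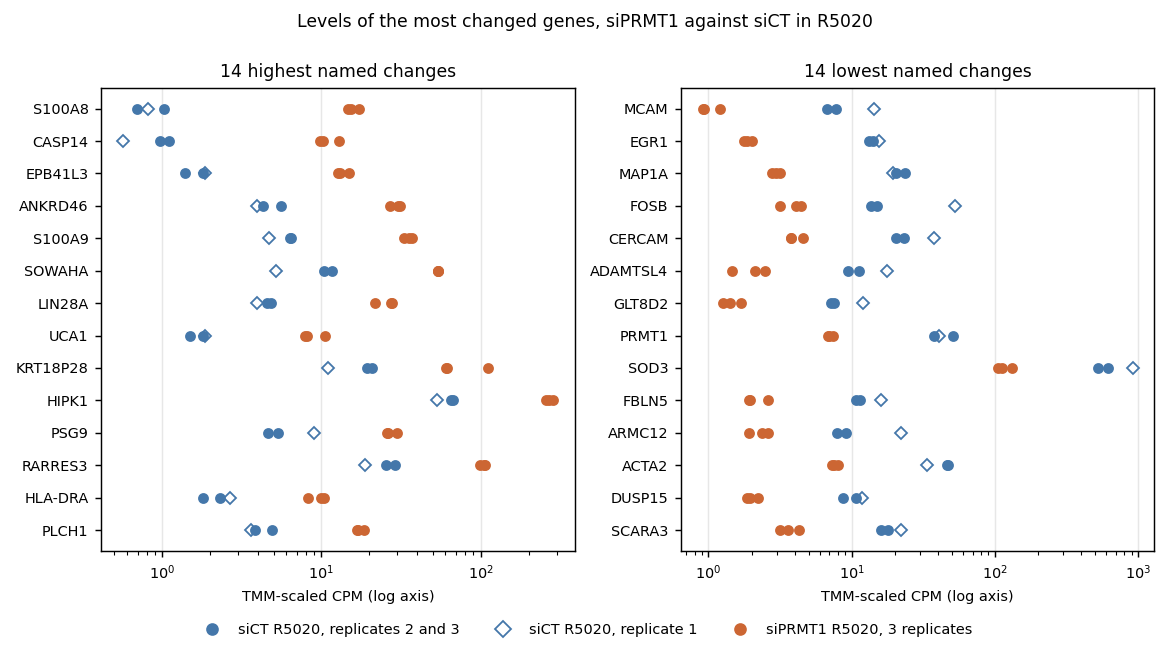
TMM-scaled CPM (log axis) of the 14 highest (left) and 14 lowest (right) named changes, 1 point per R5020 library; blue marks siCT, orange siPRMT1, and the open diamond siCT replicate 1. S100A8 lies at 0.689 to 1.03 CPM in siCT and 14.6 to 17.1 CPM in siPRMT1 libraries, and FOSB shows the siCT replicate 1 library at 52.9 CPM beside 14.9 and 13.6 in its mates.

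The genes for the hormone receptors were higher in the depleted cells. ESR1, the estrogen receptor, was at 45.3, 43.9 and 49.5 CPM with siCT and 66.3, 67.6 and 65.2 CPM with siPRMT1 (0.52 ± 0.13, adjusted p = 0.00983), with little spread within a group. PGR, the progesterone receptor and the direct target of R5020, was at 134, 183 and 191 CPM with siCT and 278, 282 and 266 CPM with siPRMT1 (0.70 ± 0.20, adjusted p = 0.0212). The siCT replicate 1 library had the lowest PGR level, and without it the log2 fold change was 0.56 and was not called (adjusted p = 0.0765). Of 28 steroid receptors and coregulators 5 rose and 5 fell (35.7% called, against 25.7% of all genes). Their median log2 fold change was 0.14 beside -0.03 over all genes. The 5 that rose were ESR1, PGR, NR3C1 (the glucocorticoid receptor), NCOA2 (a p160 coactivator) and UBE3A (a ubiquitin ligase that coactivates PGR). The 5 that fell were CITED2, JDP2 (a PGR coactivator) and the pioneer or lineage factors GATA3, TFAP2A and FOXA1. CITED2, which competes for the coactivators CBP and p300, was at 314, 475 and 472 CPM with siCT and 217, 210.2 and 210.0 CPM with siPRMT1 (-0.98 ± 0.24, adjusted p = 0.011). TFAP2A was at 97.9, 107 and 101 CPM with siCT and 70.9, 66.03 and 69.4 CPM with siPRMT1 (-0.57 ± 0.13, adjusted p = 0.00818). Leaving out siCT replicate 1 gave 3 rises and 5 falls. With library totals edgeR called 0 of the 28, whereas limma voom with quality weights called 11 higher and 8 lower (55.7% of all genes are called by that tool); at an unadjusted p under 0.05, which 39.3% of all genes met, the TMM fit had 10 higher and 5 lower.

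Genes known as progestin targets in breast cells moved in both directions with PRMT1 depletion. Of 31 tested, 8 rose and 8 fell (51.6% called, against 25.7% of all genes), with a median of -0.04. DUSP1, a phosphatase that ends MAP kinase signals, was at 350.0, 281 and 269.9 CPM with siCT and 128, 138 and 131 with siPRMT1 (-1.18 ± 0.18, adjusted p = 0.000775). PLLP, a membrane proteolipid, was at 57.9, 46.7 and 44.8 CPM with siCT and 24.6, 20.3 and 20.5 CPM with siPRMT1 (-1.19 ± 0.21, adjusted p = 0.00193). S100P, a secreted calcium-binding protein, was at 262, 260.5 and 263 CPM with siCT and 539, 508 and 544 CPM with siPRMT1; the spread was small in both groups (1.02 ± 0.17, adjusted p = 0.0012). ZBTB7C, a zinc finger repressor, was at 16.3, 21.6 and 19.9 CPM with siCT and 34.9, 31.96 and 32.01 CPM with siPRMT1 (0.77 ± 0.14, adjusted p = 0.002). The other members called lower were SGK1, SCNN1A, SCNN1G, WNT4, TSC22D3 and ERRFI1, and those called higher were KLF9, KLF4, CCND1, PDK4, CDKN1A and ELF5. Leaving out siCT replicate 1 gave 7 higher and 7 lower, and with library totals 1 higher and 6 lower.

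The epithelial sodium channel, whose subunits are encoded by SCNN1A, SCNN1B and SCNN1G, did not move as a unit. Of 23 ion and nutrient transport genes 3 rose and 2 fell (21.7% called, against 25.7% of all genes). SCNN1B was at 24.7, 16.7 and 13.6 CPM with siCT and 43.3, 40.7 and 44.4 CPM with siPRMT1 (1.23 ± 0.29, adjusted p = 0.00954). SCNN1A was at 149, 86.8 and 83.4 CPM with siCT and 47.9, 44.2 and 47.6 CPM with siPRMT1 and fell (-1.19 ± 0.29, adjusted p = 0.0105). SCNN1G was at 14.01, 7.75 and 7.71 CPM with siCT and 5.36, 5.47 and 5.04 CPM with siPRMT1 (-0.89 ± 0.25, adjusted p = 0.0218), and its call was lost without siCT replicate 1. SLC6A14, an importer of neutral and basic amino acids, was at 0.283, 0.221 and 0.0937 CPM with siCT and 1.94, 3.10 and 2.33 CPM with siPRMT1 (3.63 ± 0.38, adjusted p = 6.96e-05); the siCT libraries held 7, 8 and 3 counts of it.

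Of 25 luminal genes 4 rose, 6 fell and 15 were not called (40% called, against 25.7% of all genes), and without siCT replicate 1 it was 4 and 5. The 4 that rose were KRT18, KRT8, ELF5 and ESR1, while the keratin KRT19 was at 1455, 2080 and 1946 CPM with siCT and 2162, 1990 and 2130 CPM with siPRMT1, with overlap, and was not called. KRT18 was at 1887, 2355 and 2407 CPM with siCT and 5248, 5975 and 6470.0 CPM with siPRMT1 (1.41 ± 0.24, adjusted p = 0.00142). Its partner in luminal filaments, KRT8, was at 878, 1056 and 949.9 CPM with siCT and 2208, 1805 and 1934 CPM with siPRMT1 (1.04 ± 0.22, adjusted p = 0.00532). ELF5, a transcription factor of the secretory lineage, was at 135, 156 and 158 CPM with siCT and 261, 285 and 286 CPM with siPRMT1 (0.89 ± 0.16, adjusted p = 0.00223). TFF3, a secreted trefoil peptide, was at 171, 123 and 117 CPM with siCT and 67.8, 59.7 and 66.5 CPM with siPRMT1 (-1.08 ± 0.22, adjusted p = 0.00453). The other 5 luminal genes that fell were CLDN3, CLDN4, MUC1, GATA3 and FOXA1. Among 26 estrogen response genes 4 rose and 3 fell (26.9% called, near the 25.7% of all genes), or 4 and 2 without siCT replicate 1. The called genes included IRS1, the insulin receptor adaptor (-1.46 ± 0.16, adjusted p = 9.06e-05), IGFBP4, a binding protein for insulin-like growth factors (-1.43 ± 0.19, adjusted p = 0.000308), and the kinase inhibitor PKIB (1.75 ± 0.29, adjusted p = 0.00133).

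KRT5, a basal keratin that marks a progestin-induced subset of cells in luminal lines, was at few counts in control cells and more in depleted ones. It had 1, 3 and 4 counts in the siCT R5020 libraries and 46, 25 and 25 in the siPRMT1 R5020 libraries, and 0 in all 6 ethanol libraries. In CPM these were 0.0404, 0.0827 and 0.125 against 1.49, 0.911 and 0.788, with no overlap. KRT5 passed the filter on low counts only through the siPRMT1 R5020 libraries, so its test is not used here, and its interaction with hormone could not be estimated from ethanol groups at 0. In bulk RNA a change in the number of such cells and a change in RNA per cell cannot be told apart. KRT14, KRT17 and KRT6A stayed at 3 counts or fewer in all 6 R5020 libraries, and KRT6B had 0, 0 and 1 counts with siCT and 4, 5 and 2 with siPRMT1. Of 25 basal and mesenchymal genes 12 passed the filter, and 50% of these were called, against 25.7% of all genes. That share counts KRT5, and also S100A2, which was called lower. S100A2 passed only through the siCT R5020 libraries, where it was high, so its test is not used either and the share is a description only. Of the others, FOXC1 and SPARC were called higher and ACTA2 and CDH3 lower. CDH3, P-cadherin, was at 90.2, 57.5 and 50.5 CPM with siCT and 21.4, 20.01 and 19.6 CPM with siPRMT1 (-1.70 ± 0.31, adjusted p = 0.00208).

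Immediate early genes, which respond to kinase signals before new protein is made, were more often called lower than higher. Of 26 tested, 14 fell, 2 rose and 10 were not called (61.5% called, against 25.7% of all genes), with a median of -0.70. EGR1, a zinc finger factor induced through MAP kinase, was at 15.5, 14.1 and 13.2 CPM with siCT and 2.003, 1.86 and 1.76 CPM with siPRMT1, with little spread in either group (-2.93 ± 0.18, adjusted p = 2.19e-06). FOSB, a subunit of the AP-1 factor, was at 52.9, 14.9 and 13.6 CPM with siCT and 4.07, 3.17 and 4.41 CPM with siPRMT1. Its siCT replicate 1 value was far above the other controls, and its log2 fold change of -2.80 ± 0.62, adjusted p = 0.00632 became -1.87 without that library (adjusted p = 0.0228). IER2 was at 36.2, 34.7 and 34.5 CPM with siCT and 16.5, 11.9 and 14.3 CPM with siPRMT1 (-1.30 ± 0.18, adjusted p = 0.000345). The others that fell were CTGF and CYR61 (targets of YAP), NR4A1, FOS, JUN, JUNB, ZFP36L1, IER5 and the phosphatases DUSP1, DUSP5 and DUSP6. FOSL2, another AP-1 subunit, was at 28.2, 29.03 and 29.1 CPM with siCT and 51.9, 50.8 and 48.4 CPM with siPRMT1 and rose (0.81 ± 0.13, adjusted p = 0.000844), as did KLF4. With siCT replicate 1 left out the counts were 12 lower and 4 higher, and with library totals 12 and 2.

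Actin genes that are targets of the serum response factor (SRF) showed 8 falls and 1 rise among 20 tested (45% called, against 25.7% of all genes), with a median of -0.25. FLNA, the actin crosslinker filamin A, was at 102, 108 and 100.5 CPM with siCT and 35.02, 34.9 and 40.2 CPM with siPRMT1 (-1.50 ± 0.16, adjusted p = 6.96e-05). TPM2, a tropomyosin, was at 10.2, 4.19 and 3.25 CPM with siCT and 0.582, 0.838 and 1.48 CPM with siPRMT1, highest in siCT replicate 1 (-2.58 ± 0.53, adjusted p = 0.00402). ANKRD1, a target of YAP and SRF, was low throughout, at 0.969, 1.16 and 1.03 CPM with siCT and 0.291, 0.474 and 0.441 CPM with siPRMT1 (-1.39 ± 0.33, adjusted p = 0.00869). The remaining genes called lower were ACTA2, TPM4, MYL9, TPM1 and SRF itself, and TAGLN2 was called higher. Without siCT replicate 1, 7 were lower and 0 higher, and with library totals 4 and 0.

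SRF binds the CArG box, so the 250 bases before the start of these genes were searched for CC, then 6 bases that are A or T, then GG. This motif and the E2F sites below were chosen after the expression values were seen. The sequences come from RefSeq's table for GRCh38.p14, while the counts were made on hg19, so the positions belong to the table's build and not to the count files. Both strands were read, and 1.16% of 35116 promoters held a CArG box. EGR1 (chr5:138465229-138465478 (plus strand)) held 2 and was the only holder among 18 immediate early genes with an entry. FLNA (chrX:154374635-154374884 (minus strand)) held 1 and was among 5 of 15 actin and SRF genes that did, the others being SRF, TPM4, CNN2 and ACTG1. These 2 are shown because they are the called genes of both lists with the smallest adjusted p that hold the box; capitals mark the box, 5′ to 3′ on the gene's strand.
EGR1: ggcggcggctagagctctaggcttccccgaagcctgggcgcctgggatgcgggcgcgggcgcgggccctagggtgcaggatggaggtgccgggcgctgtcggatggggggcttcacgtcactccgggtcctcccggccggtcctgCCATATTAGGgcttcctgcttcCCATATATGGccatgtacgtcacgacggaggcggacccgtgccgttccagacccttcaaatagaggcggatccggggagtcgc
FLNA: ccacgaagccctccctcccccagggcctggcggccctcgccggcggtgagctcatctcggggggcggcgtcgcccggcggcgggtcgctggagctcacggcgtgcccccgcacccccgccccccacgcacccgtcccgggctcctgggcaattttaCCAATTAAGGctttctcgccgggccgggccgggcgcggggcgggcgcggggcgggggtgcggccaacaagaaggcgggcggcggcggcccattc

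NF-kB genes had the highest share of falls among the lists. Of 14 tested, 9 fell and 1 rose (71.4% called, against 25.7% of all genes), with a median of -0.79. NFKB1, which encodes the p105 precursor of p50, was at 16.3, 18.9 and 17.7 CPM with siCT and 7.20, 7.65 and 7.88 CPM with siPRMT1 (-1.22 ± 0.13, adjusted p = 8.84e-05). NFKB2, the precursor of p52, was at 19.1, 18.97 and 17.3 CPM with siCT and 11.1, 9.37 and 11.3 CPM with siPRMT1 (-0.80 ± 0.16, adjusted p = 0.00336). TNF, an inflammatory cytokine and target of the pathway, was at 3.96, 2.07 and 2.47 CPM with siCT and 0.678, 0.656 and 0.473 CPM with siPRMT1 (-2.22 ± 0.37, adjusted p = 0.00133). The adaptor TRAF1 was at 4.12, 2.59 and 2.09 CPM with siCT and 0.485, 0.51 and 0.945 CPM with siPRMT1 (-2.15 ± 0.40, adjusted p = 0.00239). The others that fell were RELB, ICAM1, NFKBIZ and the inhibitors NFKBIE and TNFAIP3, while the inhibitor NFKBIB rose. In this list siCT replicate 1 lay close to its mates, with a list median 0.13 above them on the log2 scale, beside -0.55 to -0.67 in the siPRMT1 libraries. Without it 7 fell and 1 rose, and with library totals 7 fell.

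The TGF-beta, BMP and ID genes split by member, with 9 falls and 4 rises among 23 (56.5% called, against 25.7% of all genes) and a median of -0.61. ID1, an inhibitor of basic helix-loop-helix factors and a classic BMP target, was at 6.46, 4.33 and 3.998 CPM with siCT and 1.002, 1.13 and 0.756 CPM with siPRMT1 (-2.35 ± 0.28, adjusted p = 0.00015). Its relative ID2 went the other way, at 9.41, 11.2 and 10.5 CPM with siCT and 30.3, 28.1 and 32.5 CPM with siPRMT1 (1.55 ± 0.13, adjusted p = 1.77e-05). BMP7, a ligand, was at 2.38, 1.63 and 2.19 CPM with siCT and 5.95, 5.61 and 6.68 CPM with siPRMT1 (1.56 ± 0.19, adjusted p = 0.000174). BAMBI, a decoy receptor, was at 165, 116 and 125 CPM with siCT and 57.2, 55.5 and 55.1 CPM with siPRMT1 (-1.27 ± 0.18, adjusted p = 0.000449). The ligands TGFB1, TGFB3 and BMP4, the receptor BMPR1B, ID3, PMEPA1 and SMAD7 also fell, and the receptor TGFBR1 and the corepressor SKIL rose. Without siCT replicate 1, and also with library totals, 7 fell and 4 rose.

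Notch genes showed 5 falls, DLL4 included, and 0 rises by edgeR among 13 tested (38.5% called, against 25.7% of all genes), with a median of -0.58. At an unadjusted p under 0.05 it was 7 and 0, beside 39.3% of all genes, and by limma voom 7 and 1, beside 55.7%. HES1, the canonical Notch target and a repressor, was at 593, 322 and 321 CPM with siCT and 120.5, 147 and 125 CPM with siPRMT1 (-1.65 ± 0.29, adjusted p = 0.00192), and without the high siCT replicate 1 the value was -1.29 (adjusted p = 0.00517). NRARP, a feedback inhibitor, was at 22.4, 18.03 and 16.9 CPM with siCT and 8.92, 9.40 and 9.61 CPM with siPRMT1 (-1.04 ± 0.16, adjusted p = 0.000682). The ligand DLL4 was at 2.42, 1.30 and 1.41 CPM with siCT and 0.485, 0.109 and 0.41 CPM with siPRMT1 (-2.30 ± 0.42, adjusted p = 0.00232), from 60, 47 and 45 counts against 15, 3 and 13. DLL4 passed the filter only through the siCT R5020 libraries, so its test gives no support. The edgeR counts, share and median of this list include it, and limma voom used the same filter. The counts of this list in every fit are therefore a description only. The coactivator MAML2 and the receptor NOTCH3 were the other members called lower. The list median of siCT replicate 1 lay 0.67 above its mates, and without it 4 fell.

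EGFR family receptors, ligands and feedback genes showed 8 falls and 0 rises by edgeR among 19 (42.1% called, against 25.7% of all genes), with a median of -0.57. It was 10 and 2 at an unadjusted p under 0.05 (39.3% of all genes) and 10 and 5 by limma voom (55.7% of all genes). The ligand BTC was at 4.16, 2.51 and 2.78 CPM with siCT and 1.52, 1.24 and 1.42 CPM with siPRMT1 (-1.16 ± 0.27, adjusted p = 0.00904). The feedback inhibitors SPRY2, ERRFI1 and SPRED2 had log2 fold changes of -0.87, -0.60 and -0.58, with adjusted p of 0.00483, 0.00991 and 0.0148. EGFR, the ligands NRG4 and HBEGF, and SPRY4 were the rest. With siCT replicate 1 left out 5 fell and 1 rose, and the same counts were found with library totals.

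Extracellular matrix and secreted protease genes had the lowest median of all lists, -1.13, with 19 falls and 1 rise among 38 tested (52.6% called, against 25.7% of all genes). TIMP2, an inhibitor of matrix metalloproteinases, was at 427, 329.5 and 302 CPM with siCT and 90.6, 90.2 and 87.8 CPM with siPRMT1 (-1.98 ± 0.23, adjusted p = 0.000116). TIMP3, which stays bound to the matrix, was at 6.74, 5.10 and 5.09 CPM with siCT and 1.61, 1.17 and 1.48 CPM with siPRMT1 (-1.98 ± 0.27, adjusted p = 0.000409). FN1, fibronectin, was at 61.2, 41.2 and 40.4 CPM with siCT and 16.4, 18.3 and 17.3 CPM with siPRMT1 (-1.46 ± 0.22, adjusted p = 0.000759). Others that fell included the collagen genes COL4A5, COL4A6, COL5A1, COL12A1 and COL18A1, the laminin genes LAMB1 and LAMB3, and FBLN1, AGRN, HSPG2, PLAU, LOXL2, MMP15, IGFBP2 and IGFBP4. SPARC rose, from 3, 3 and 4 counts to 28, 10 and 19. The siCT replicate 1 library moved with this list: its list median lay 0.80 above its mates, beside -0.60 to -0.74 in the siPRMT1 libraries. Without it 10 fell and 1 rose, at a median of -0.80, and with library totals 25 fell and 2 rose. Why it stands apart was not tested.

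Cell adhesion genes showed 11 falls and 4 rises among 39 (38.5% called, against 25.7% of all genes). Besides MCAM, the integrin ITGA5, which pairs with ITGB1 to bind fibronectin, was at 44.04, 24.1 and 24.9 CPM with siCT and 9.05, 7.11 and 8.22 CPM with siPRMT1 (-1.93 ± 0.34, adjusted p = 0.00167). ITGB8, an integrin that activates TGF-beta, was at 3.15, 2.84 and 2.65 CPM with siCT and 6.88, 7.94 and 5.61 CPM with siPRMT1 and rose (1.24 ± 0.21, adjusted p = 0.00149). PKP2, a desmosomal plakophilin, was at 16.6, 19.1 and 18.6 CPM with siCT and 57.6, 61.4 and 58.4 CPM with siPRMT1 and rose 3.27-fold (1.71 ± 0.17, adjusted p = 5.42e-05). Without siCT replicate 1, 8 fell and 2 rose.

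**Figure D2:**
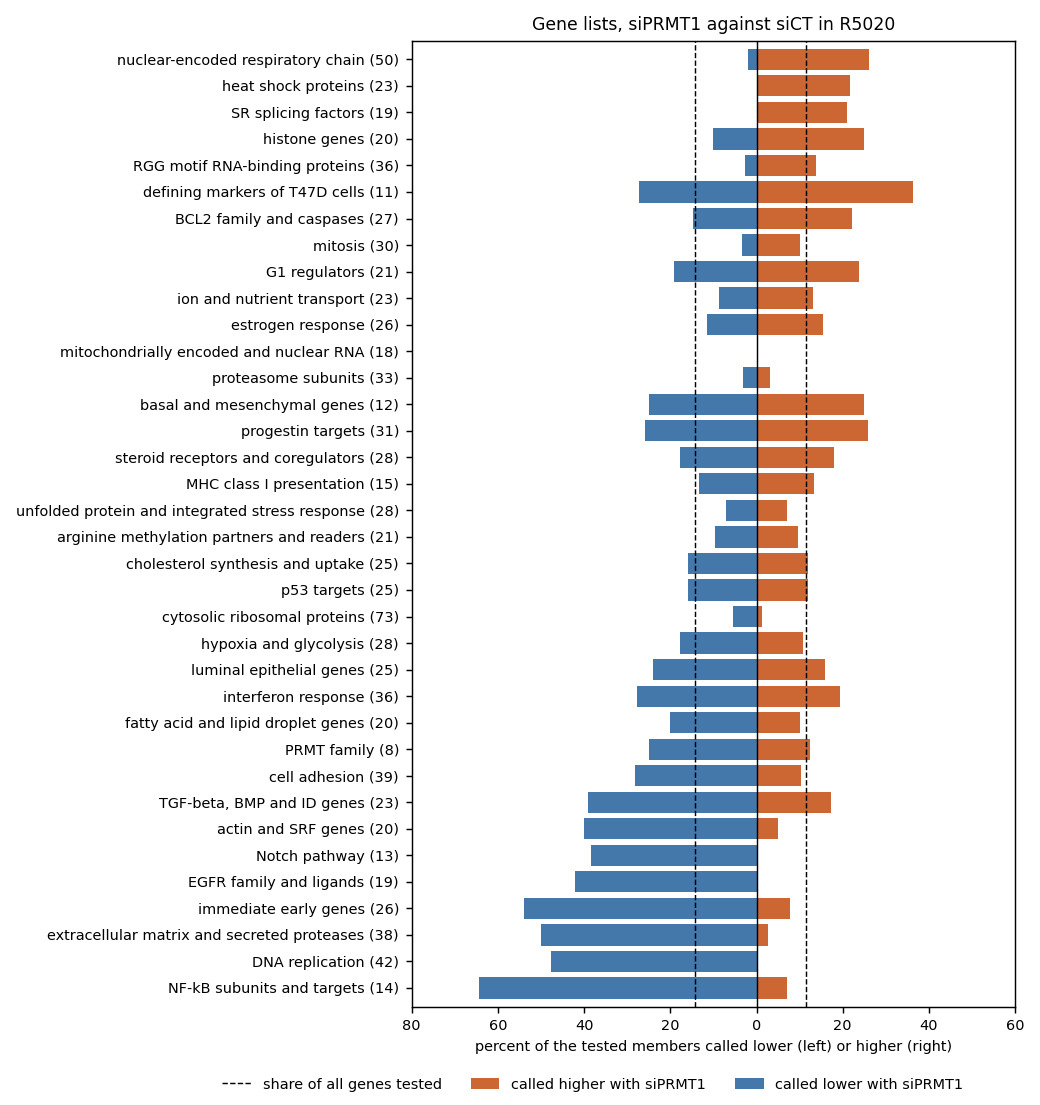
Percent of the tested members of each gene list that were called lower (left, blue) or higher (right, orange) with siPRMT1 in R5020, with the number tested in parentheses; dashed lines are the shares of all 17727 genes tested, 14.2% lower and 11.5% higher. NF-kB genes, immediate early genes, matrix genes and DNA replication genes reach furthest left.

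Of 42 genes of DNA replication, 20 fell and 22 were not called (47.6% called lower, against 14.2% of all genes), with a median of -0.50 beside -0.03 over all genes. At an unadjusted p under 0.05 edgeR had 22 lower and 0 higher (21.1% of all genes lower), and limma voom with quality weights called 30 lower and 0 higher (28.3% lower). E2F1, an activator of S phase genes, was at 29.2, 23.9 and 22.5 CPM with siCT and 10.02, 9.33 and 11.2 CPM with siPRMT1 (-1.31 ± 0.16, adjusted p = 0.000176). E2F2, its close relative, was at 4.56, 5.10 and 4.62 CPM with siCT and 2.84, 2.59 and 2.68 CPM with siPRMT1 (-0.82 ± 0.16, adjusted p = 0.0032). CDC6, which loads the helicase at origins, was at 35.8, 42.4 and 42.9 CPM with siCT and 18.7, 18.4 and 17.8 CPM with siPRMT1 (-1.14 ± 0.15, adjusted p = 0.000285). The helicase subunit MCM5 was at 18.7, 20.6 and 19.4 CPM with siCT and 10.02, 9.77 and 10.7 CPM with siPRMT1 (-0.95 ± 0.16, adjusted p = 0.00141). The siCT replicate 1 library lay above its mates for E2F1 and below them for CDC6, and both genes fell without it too. The others called lower were UHRF1, CDC25A, GINS2, TK1, CDT1, ORC1, MCM10, CDC45, TYMS, MCM7, ORC6, GINS4, MCM2, CHAF1B, POLA1 and POLA2. In ethanol, 6 members fell and 6 rose with depletion and the median was -0.08, but edgeR's test of the difference between the 2 media called 0 of the 42. By that test 12 had an unadjusted p under 0.05, as did 4.06% of all genes. This was not particular to replication genes, as 13 of 31 progestin targets and 7 of 26 estrogen response genes met the same threshold. Without siCT replicate 1, 18 fell. With library totals 3 of the 42 fell, beside 1685 of all 17727 genes tested, so the share called lower was not above that of all genes. The list median in that fit was -0.42, beside 0.007 over all genes.

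E2F factors bind TTTCCCGC and TTTGGCGC, and either site, on either strand, was held by 1.93% of all 35116 promoters. Among the 37 replication genes with an entry 15 held it, and among the 18 of these that were called lower 9 did. Shown are E2F1 (chr20:33686386-33686635 (minus strand)), E2F2 (chr1:23531234-23531483 (minus strand)), GINS2 (chr16:85688955-85689204 (minus strand)), a subunit of the replicative helicase complex, and CDC25A (chr3:48188418-48188667 (minus strand)), a phosphatase that activates CDK2, as called genes with a site. These genes were picked from the 9 called ones with a site without a ranking rule. Capitals mark the site on the gene's strand, 5′ to 3′.
E2F1: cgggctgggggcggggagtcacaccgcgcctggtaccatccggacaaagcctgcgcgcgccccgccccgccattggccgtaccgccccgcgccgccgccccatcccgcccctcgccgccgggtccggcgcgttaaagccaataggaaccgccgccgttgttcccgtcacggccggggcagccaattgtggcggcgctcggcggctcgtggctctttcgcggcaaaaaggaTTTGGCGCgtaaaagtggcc
E2F2: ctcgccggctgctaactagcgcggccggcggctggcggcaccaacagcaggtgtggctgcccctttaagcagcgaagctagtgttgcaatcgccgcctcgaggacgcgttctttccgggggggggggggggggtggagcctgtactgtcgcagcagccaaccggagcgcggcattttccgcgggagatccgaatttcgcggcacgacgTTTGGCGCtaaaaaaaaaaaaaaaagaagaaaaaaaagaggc
GINS2: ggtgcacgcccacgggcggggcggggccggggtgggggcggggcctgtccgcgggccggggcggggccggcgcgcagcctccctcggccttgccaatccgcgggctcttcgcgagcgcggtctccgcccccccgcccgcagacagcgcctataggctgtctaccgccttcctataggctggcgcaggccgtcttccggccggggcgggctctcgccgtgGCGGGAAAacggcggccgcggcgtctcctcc
CDC25A: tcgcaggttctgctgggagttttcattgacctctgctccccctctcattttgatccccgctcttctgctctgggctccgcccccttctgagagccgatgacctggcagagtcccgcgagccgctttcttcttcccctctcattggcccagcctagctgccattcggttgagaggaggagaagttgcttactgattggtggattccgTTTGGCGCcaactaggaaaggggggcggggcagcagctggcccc

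In these windows a match describes letters only. The full palindromic progesterone receptor element, with both half-sites, was held by none of 23 progestin targets with an entry and by 0.00285% of all promoters. Its half-site AGAACA was in 3 of the 23 (PDK4, PRLR and STAT5A) and in 12.4% of all promoters.

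Regulators of the G1 phase were called in both directions (42.9% of the list), and 13.3% of mitotic genes were called, beside 25.7% of all genes. CDK2, the S phase kinase, was at 88.3, 102 and 96.6 CPM with siCT and 48.98, 50.03 and 50.9 CPM with siPRMT1 (-0.94 ± 0.14, adjusted p = 0.000668). CDKN2A, whose products include p16, was at 12.6, 13.9 and 13.7 CPM with siCT and 5.78, 5.17 and 5.58 CPM with siPRMT1 (-1.28 ± 0.14, adjusted p = 0.000111). Counts per gene symbol do not tell its products apart. CDKN1A, which encodes the CDK inhibitor p21, was at 63.6, 106 and 97.9 CPM with siCT and 164, 161 and 158 CPM with siPRMT1 (0.85 ± 0.21, adjusted p = 0.0114), lowest in siCT replicate 1. CCND1, cyclin D1, was at 103, 134 and 123 CPM with siCT and 205, 187 and 186 CPM with siPRMT1 (0.68 ± 0.16, adjusted p = 0.00949). Of 21 G1 regulators 5 rose and 4 fell, or 4 and 3 without siCT replicate 1. Of 30 mitosis genes, 3 rose (ECT2, BUB1 and CCNB1) and 1 fell (AURKB), and without siCT replicate 1 these 4 calls were lost. CCNB1, cyclin B1, was at 59.2, 69.7 and 77.5 CPM with siCT and 92.8, 109.6 and 106 CPM with siPRMT1.

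Genes of apoptosis were called in both directions (37% of the list), and p53 targets at a share (28%) near the 25.7% of all genes. BCL2L11, the death-promoting protein BIM, was at 16.5, 24.5 and 25.3 CPM with siCT and 50.2, 58.01 and 53.8 CPM with siPRMT1 (1.29 ± 0.22, adjusted p = 0.00167). BIRC3, an inhibitor of apoptosis protein, was at 6.66, 8.30 and 8.81 CPM with siCT and 15.1, 16.4 and 15.03 CPM with siPRMT1 (0.96 ± 0.19, adjusted p = 0.00325). BID, which links death receptors to mitochondria, was at 41.9, 37.5 and 42.6 CPM with siCT and 26.1, 27.7 and 25.7 CPM with siPRMT1 (-0.62 ± 0.12, adjusted p = 0.00335). Of 27 BCL2 family, caspase and related genes 6 rose, CASP14 the furthest, and 4 fell, or 2 without siCT replicate 1. Among 25 p53 targets 3 rose and 4 fell, or 3 and 2 without siCT replicate 1. PLK2, a stress-induced kinase, was at 91.3, 59.6 and 66.9 CPM with siCT and 35.6, 36.3 and 34.6 CPM with siPRMT1 (-1.03 ± 0.17, adjusted p = 0.0013). MDM2, the ligase that removes p53, was at 120.0, 115 and 129.5 CPM with siCT and 176, 200.1 and 184 CPM with siPRMT1 (0.62 ± 0.15, adjusted p = 0.0118). T47D cells are known to carry mutant p53.

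Interferon response genes split within the list, with 7 rises and 10 falls among 36 (47.2% called, against 25.7% of all genes) and a median of -0.17. OASL, an antiviral oligoadenylate synthetase-like protein, was at 21.1, 22.99 and 21.1 CPM with siCT and 73.5, 81.01 and 86.8 CPM with siPRMT1 (1.89 ± 0.15, adjusted p = 1.21e-05). IFIT2 and IFIT3, which bind foreign RNA, were higher in all 3 depleted libraries than in any control (1.42 and 1.39, adjusted p of 9.43e-05 and 0.000181). IFI27 was at 136, 113 and 115 CPM with siCT and 278, 278 and 292 CPM with siPRMT1 (1.22 ± 0.17, adjusted p = 0.00038). RSAD2, DDX58 and DDX60 also rose. The 10 that fell were BST2, IRF7, OAS3, STAT2, IFI35, PARP14, PARP9, TRIM22, MX1 and MX2, each by less than 1 on the log2 scale. Leaving out siCT replicate 1 gave 7 and 9, and with library totals 6 and 3. Of 15 genes of class I presentation 26.7% were called, near the 25.7% of all genes. B2M, the light chain, was at 743, 484 and 537 CPM with siCT and 1539, 1548 and 1324 CPM with siPRMT1 (1.32 ± 0.27, adjusted p = 0.00426), and PSMB8 also rose. The peptide trimmer ERAP1 and the chaperone TAPBP fell. Without siCT replicate 1 only B2M was called.

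Metabolic genes were called at shares near the 25.7% of all genes: 28.6% for hypoxia and glycolysis, 28% for cholesterol and 30% for fatty acid genes. HK2, hexokinase 2, was at 26.4, 26.03 and 27.9 CPM with siCT and 54.8, 51.5 and 50.3 CPM with siPRMT1 (0.96 ± 0.12, adjusted p = 0.00016). PFKM, phosphofructokinase, was at 15.4, 15.03 and 15.6 CPM with siCT and 5.46, 7.58 and 6.74 CPM with siPRMT1 (-1.22 ± 0.14, adjusted p = 0.00012). Of 28 hypoxia and glycolysis genes 3 rose and 5 fell, and without siCT replicate 1 it was 1 and 4. HMGCS1, at the start of the mevalonate pathway, was at 30.9, 31.5 and 35.9 CPM with siCT and 69.8, 79.5 and 74.9 CPM with siPRMT1 (1.19 ± 0.16, adjusted p = 0.000317), in a list of 25 cholesterol genes with 3 rises and 4 falls, and the calls of these 4 were lost without that replicate. DGAT2, which completes triglyceride synthesis, was at 2.26, 1.74 and 1.87 CPM with siCT and 6.72, 6.89 and 6.93 CPM with siPRMT1 (1.81 ± 0.21, adjusted p = 0.00012). ACLY, which makes cytosolic acetyl-CoA, was at 184, 240.3 and 248 CPM with siCT and 114, 115 and 114 CPM with siPRMT1 (-0.97 ± 0.17, adjusted p = 0.00173). Among 20 fatty acid and lipid droplet genes 2 rose and 4 fell, or 1 without that replicate.

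Of 50 nuclear-encoded respiratory chain genes 13 rose, 1 fell and 36 were not called. In both directions together 28% were called, near the 25.7% of all genes, of which 11.5% were higher and 14.2% lower. At an unadjusted p under 0.05 edgeR had 21 higher and 3 lower, beside 18.2% and 21.1% of all genes. The median was 0.28, and 27 members had groups that did not overlap upward (54% of the list, against 25.6% of all genes). ATP5B, the catalytic subunit of ATP synthase, was at 518, 674 and 682 CPM with siCT and 1398, 1218 and 1240.0 CPM with siPRMT1 (1.04 ± 0.21, adjusted p = 0.00347). NDUFS1, a complex I subunit, was at 44.3, 51.5 and 56.5 CPM with siCT and 78.1, 91.7 and 86.1 CPM with siPRMT1 (0.75 ± 0.16, adjusted p = 0.00487). NDUFV2, another complex I subunit, was the exception at 2.22, 2.40 and 2.31 CPM with siCT and 0.452, 0.474 and 0.662 CPM with siPRMT1 (-2.11 ± 0.23, adjusted p = 9.36e-05). The calls were fewer in other fits: without siCT replicate 1, 3 rose at a median of 0.21, and with library totals the 13 calls were lost. For the 18 mitochondrially encoded and nuclear RNAs edgeR called 0, with 2 lower at an unadjusted p under 0.05 (39.3% of all genes), and limma voom with quality weights called 5 higher and 3 lower (55.7% of all genes). The siCT replicate 1 library lay 1.23 above its mates in that list and 0.31 below them in the respiratory chain list. The median of the 18 was -0.35 with that library and 0.27 without it, so its direction reversed, and 0 were called in either fit.

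Genes for proteins that fold, splice and package were called, in both directions together, at shares under that of all genes, except histone genes. Shares of all genes were 25.7% called by edgeR, 39.3% at an unadjusted p under 0.05 and 55.7% by limma voom. Heat shock genes had 5 rises and 0 falls by edgeR among 23 (6 and 1 at an unadjusted p under 0.05, and 8 and 4 by limma voom), and 3 rises without siCT replicate 1. HSPH1, a nucleotide exchange factor of HSP70, was at 18.4, 21.6 and 23.7 CPM with siCT and 41.97, 44.4 and 39.3 CPM with siPRMT1 (0.98 ± 0.16, adjusted p = 0.00122). RGG motif RNA-binding proteins, a main class of PRMT1 substrates, had 5 rises and 1 fall among 36, and without that replicate 1 and 1. RBM3, a cold-induced RNA-binding protein, was at 72.5, 66.5 and 70.6 CPM with siCT and 116, 129 and 125 CPM with siPRMT1 (0.82 ± 0.15, adjusted p = 0.0021). NONO, a paraspeckle protein, was at 105, 134 and 122 CPM with siCT and 82.1, 68.8 and 74.4 CPM with siPRMT1 (-0.68 ± 0.17, adjusted p = 0.0121). SR splicing factors had 4 rises and 0 falls by edgeR among 19 (4 and 1 at an unadjusted p under 0.05, and 11 and 0 by limma voom), and these calls were lost without that replicate. Of 73 cytosolic ribosomal protein genes 1 rose and 4 fell (6.85% called), and of 33 proteasome genes 1 rose and 1 fell (6.06%), both under the 25.7% of all genes. Among 20 histone genes 5 rose and 2 fell (35% called, against 25.7% of all genes), or 3 and 1 without siCT replicate 1. HIST1H2BK was at 89.2, 126 and 125 CPM with siCT and 334, 289 and 302 CPM with siPRMT1 (1.44 ± 0.22, adjusted p = 0.000823). Histone and ribosomal protein genes have near-identical copies, so their values are uncertain. Of 28 stress response genes 2 rose and 2 fell, PSAT1, a serine synthesis enzyme, among the former at 9.89, 12.2 and 14.7 CPM with siCT and 25.6, 33.6 and 25.5 CPM with siPRMT1 (1.20 ± 0.23, adjusted p = 0.0031).

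**Figure D3:**
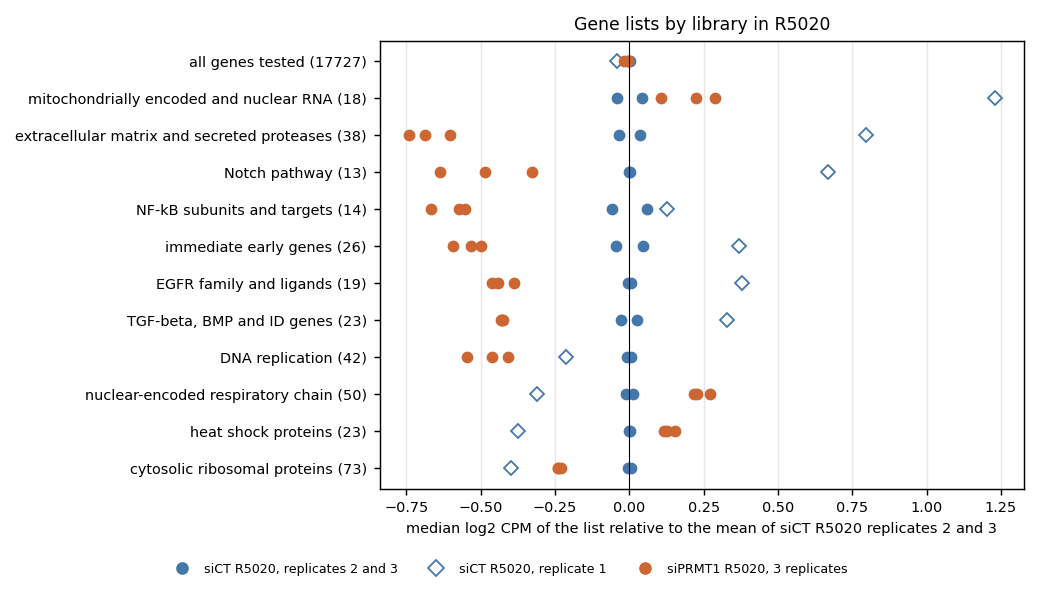
Median log2 CPM of 12 gene sets in each R5020 library, relative to the mean of siCT replicates 2 and 3, with the number of genes in parentheses; blue marks siCT, orange siPRMT1, and the open diamond siCT replicate 1. The open diamond lies at 1.23 for mitochondrially encoded and nuclear RNA and at 0.80 for matrix genes, and for DNA replication it lies at -0.21, above the siPRMT1 libraries at -0.41 to -0.55.

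Depletion without hormone gave a similar picture, and the comparison shares no library with the R5020 one. In ethanol, 5806 genes were called (32.8%). Both comparisons called 3627 genes with the same sign, 1568 higher and 2059 lower, which is 79.6% of the R5020 calls and 62.5% of the ethanol calls. Across the tested genes, which are not independent replicates, the log2 fold changes had Pearson's r of 0.854 and Spearman's rho of 0.86. Without siCT R5020 replicate 1 and siCT ethanol replicate 3, which both had high mitochondrial shares, the shares were 78.4% and 68.5% and r was 0.819. S100A8 rose by 4.34 in ethanol and 4.21 in R5020, and MCAM had log2 fold changes of -3.74 and -3.23.

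**Figure D4:**
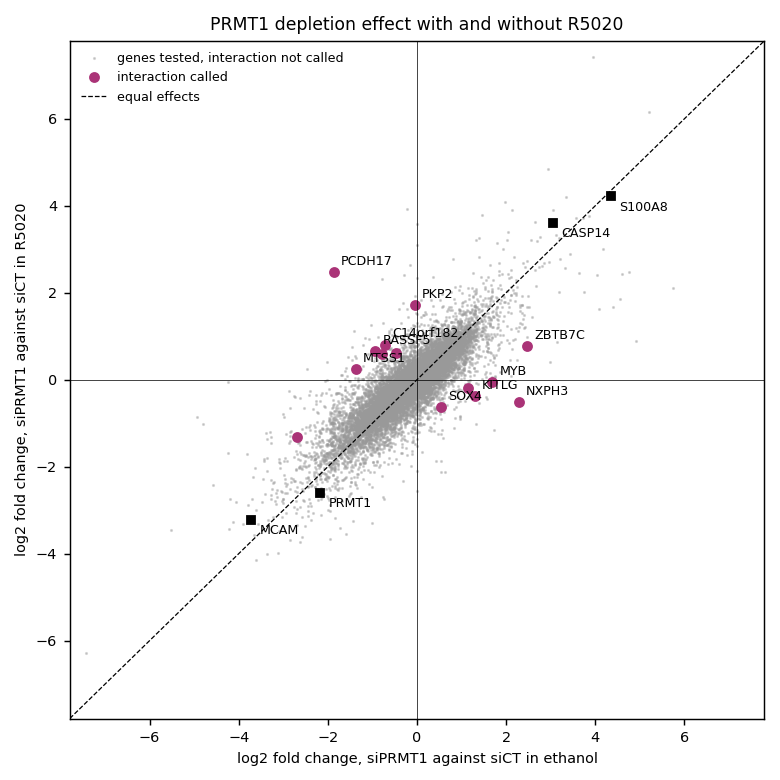
Log2 fold change of siPRMT1 against siCT in ethanol (x) and in R5020 (y), 1 point per tested gene; purple marks the 14 genes with a called interaction, black squares mark 4 reference genes, and the dashed line is where both effects are equal. PCDH17 lies furthest above the line and NXPH3 furthest below it among the named interaction genes.

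The size of the depletion effect differed between R5020 and ethanol for 14 genes (0.079% called by edgeR), of which 8 had a higher (0.0451%) and 6 a lower (0.0338%) value in R5020. At an unadjusted p under 0.05 there were 720 (4.06%). PKP2 was at 25.4, 32.2 and 19.6 CPM in siCT and 26.6, 22.6 and 25.3 CPM in siPRMT1 ethanol libraries, so depletion raised it in R5020 and in ethanol the groups overlapped (interaction 1.76 ± 0.24, adjusted p = 0.0243). MTSS1, an actin regulator at the membrane, was at 7.41, 5.63 and 6.67 CPM with siCT and 1.97, 3.27 and 2.37 CPM with siPRMT1 without hormone and 16.6, 18.4 and 18.7 CPM with siCT and 23.7, 20.4 and 19.1 CPM with siPRMT1 with it (1.61 ± 0.26, adjusted p = 0.0447). SOX4, a developmental transcription factor, was at 19.8, 20.8 and 19.1 CPM with siCT and 28.8, 28.9 and 29.1 CPM with siPRMT1 without hormone and 79.2, 88.6 and 93.1 CPM with siCT and 53.4, 57.2 and 56.9 CPM with siPRMT1 with it, so that its direction differed between the media (-1.18 ± 0.17, adjusted p = 0.0249). MYB, a proliferation-linked transcription factor, was at 4.47, 4.63 and 4.10 CPM with siCT and 13.6, 14.4 and 14.5 CPM with siPRMT1 without hormone and 2.06, 2.45 and 2.15 CPM with siCT and 2.23, 2.11 and 2.11 CPM with siPRMT1 with it, where the groups overlapped (-1.74 ± 0.21, adjusted p = 0.0203). KITLG, the ligand of KIT, was at 10.8, 17.5 and 15.5 CPM with siCT and 33.5, 34.9 and 38.9 CPM with siPRMT1 without hormone and 7.91, 7.55 and 9.09 CPM with siCT and 5.85, 6.23 and 6.71 CPM with siPRMT1 with it (-1.68 ± 0.25, adjusted p = 0.0249).

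Depletion changed MYB and KITLG in ethanol, and in R5020 neither was called (adjusted p of 0.828 and 0.123). The depletion effect in R5020 was not called for MTSS1 and NXPH3 either (adjusted p of 0.35 and 0.0698). The remaining named genes were ZBTB7C, which rose in both media and by more in ethanol, RASSF5 and C14orf182, which rose in R5020 (RASSF5 not called there without siCT replicate 1 or siPRMT1 replicate 2 in R5020) and fell in ethanol, NXPH3 and PCDH17. PCDH17 rests on low counts, with 4, 2 and 4 in siCT R5020 and 19, 17 and 20 in siPRMT1 R5020 libraries. The interaction calls depend on the libraries used: leaving out 1 library gave between 0 and 32, and 8 of the 12 such fits gave 0.

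**Figure D5:**
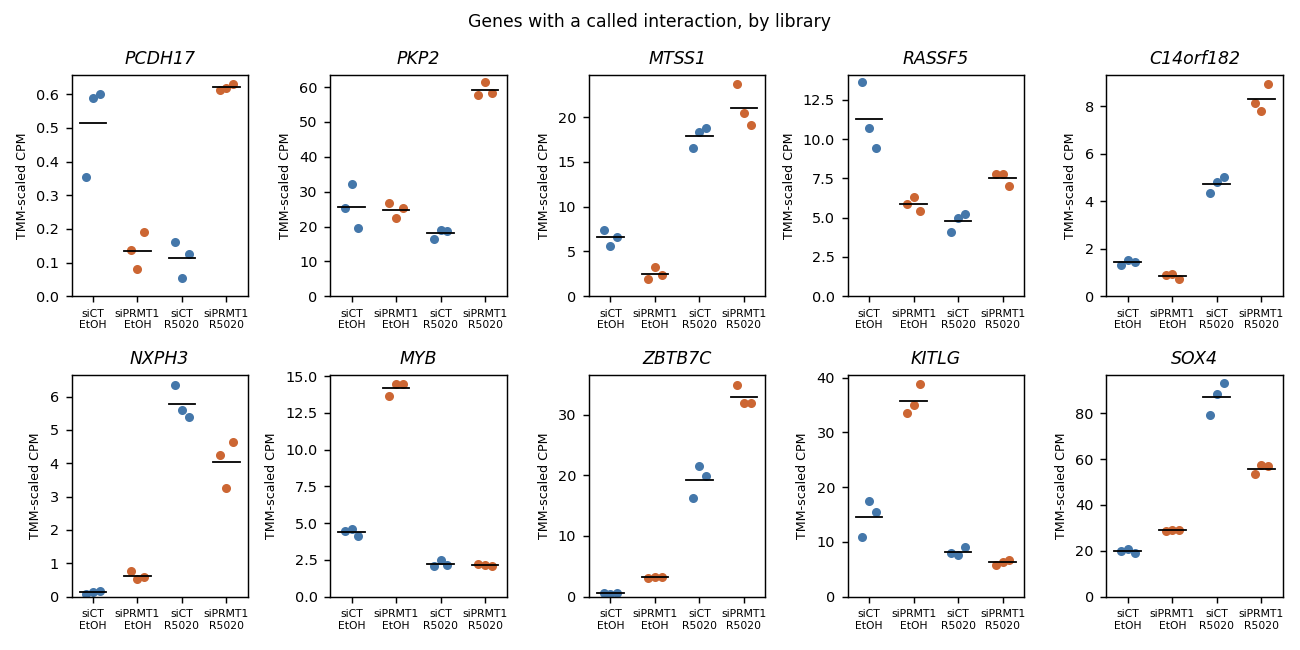
TMM-scaled CPM of the 10 named genes with a called interaction in all 12 libraries (axes start at 0), with 1 point per library and a line at each group mean; blue marks siCT, orange siPRMT1, and EtOH is ethanol. PKP2 is high only in the siPRMT1 R5020 libraries, at 57.6 to 61.4 CPM, and MYB only in the siPRMT1 ethanol libraries, at 13.6 to 14.5 CPM.

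In the authors' deposited table, in the columns whose header names this comparison, 5923 genes had an adjusted p under 0.05, with 2959 higher and 2964 lower. That table and the edgeR fit shared 4252 calls, all with the same sign, which is 93.3% of the edgeR calls and 71.8% of those in the authors' deposited table. The log2 fold changes correlated across genes with r of 0.973. In the authors' deposited table PRMT1 was at -2.48, S100A8 at 3.93 and PGR at 0.69.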

How the data were processed

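Each library's deposited file gives raw read counts per gene symbol; per the submitters' processing notes, the tools were Bowtie2 2.3.2.2, HTSeq 0.9.1 and DESeq2 with hg19, and which options, strand setting and annotation were used is not given in the sources used here, so reads of overlapping or antisense genes cannot be told apart. The authors' deposited comparison table adds log2 fold changes and adjusted p-values. Per the labels' protocols, libraries were made with a SENSE mRNA-Seq kit from 3 biological replicates per group. The counts were tested here with edgeR 4.0.16 in R 4.3.3 (filterByExpr, TMM, quasi-likelihood test, 1 mean per group over all 12 libraries, which share 1 estimate of spread, Benjamini-Hochberg adjustment, threshold 0.05). Library totals, RLE, other filters, DESeq2 1.42.0, limma 3.58.1 voom, fewer libraries and a replicate block were alternatives. Code was tested on simulated data. Named genes are PRMT1, PGR, ESR1, the 14 highest and 14 lowest called and not overlapping genes at 5 CPM or more, 5 interaction genes each way, and up to 4 members per list with the smallest adjusted p; other members are named only to complete a list's calls. The 37 lists and this rule were chosen with earlier results of these data known. Of 171 named genes 131 had a RefSeq promoter. No libraries were identical, and no value column was left unmapped (0).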

Additional observations from a re-analysis of the deposited data

Results flagged for a closer look

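The depletion effect in R5020 minus that in ethanol, on the log2 scale and tested as an interaction by edgeR, differed from 0 for the following named genes. It was higher in R5020 for PCDH17 (4.342, on 4, 2 and 4 counts in siCT R5020 libraries), PKP2 (1.76), MTSS1 (1.606), RASSF5 (1.599) and C14orf182 (1.533). It was lower in R5020 for NXPH3 (-2.795, on 3, 5 and 3 counts in siCT ethanol libraries), MYB (-1.735), ZBTB7C (-1.699), KITLG (-1.681) and SOX4 (-1.181). The calls rest on all 12 libraries: without 1 library the number of such genes ranged from 0 to 32, and it was 0 in 8 of 12 such fits (without siCT R5020 replicate 2 or 3, or any siPRMT1 library).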

How the results depend on the processing

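All 4559 genes called in R5020 that could be tested kept their sign in each alternative fit. With library totals 2429 genes were called (744 higher), with limma voom and quality weights 9866 (4844 higher, 5022 lower), and without siCT ethanol replicate 3 and siCT R5020 replicate 1 6992 (3463 higher). Leaving out 1 library at a time gave 2332 to 6768 calls in R5020 (1041 to 3150 higher, 1291 to 3618 lower), 3487 to 7827 in ethanol and 0 to 32 for the interaction (0 in 8 of 12 such fits); the fewest in R5020 came without siPRMT1 R5020 replicate 2, and without siPRMT1 R5020 replicates 1 and 3 it was 2892 and 2654. In ethanol library totals gave 3021. The 14 interaction calls became 3 with library totals, 29 without a filter, 86 with DESeq2, 65 with limma voom and 140 without the 2 libraries that stand apart. The cause was not tested. A replicate block gave 3845 calls in R5020, 4936 in ethanol and 0 for the interaction. Deviations of same-numbered R5020 libraries from their group means had r of 0.0463, -0.000713 and -0.0648. Most of the siCT spread comes from replicate 1, so these values cannot decide whether the numbers mark a shared batch. The labels do not say so, and the numbers were not taken as pairs. On the log2 scale MYB in R5020 ranged from -0.0995 (without siCT R5020 replicate 1) to 0.0257 (without replicate 2) over the fits with 1 library left out. COL1A1, at -0.31, ranged from -0.505 (without replicate 3) to 0.0795 (without replicate 1), with 0.0613 by limma voom and 0.0900 without the 2 libraries. Neither gene was called. Of the 171 named genes 58 lost a call with library totals; with 1 R5020 library left out it was 24, 18 and 8 for siCT replicates 1 to 3 and 22, 34 and 24 for siPRMT1 replicates 1 to 3. Genes at a few counts per library, such as PCDH17 and KRT5, are limited by depth. The counts per gene list in other fits were chosen after seeing the data.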
